A study of Homo sapiens with 12 samples.

Results

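The mRNA levels of 10 genes of the ATF4 integrated stress response were followed in prostate cancer cells in which GALNT7, an enzyme of O-linked glycosylation, had been lowered or raised. The genes were ATF4, ATF3, DDIT3, TRIB3, CHAC1, ASNS, SESN2, DDIT4, PPP1R15A and CEBPB, taken by symbol. They were chosen with earlier results of these data known, so their shares beside all genes are descriptions. Each of the 10 matched a single Ensembl identifier among the 59424 measured. All 10 passed the filter on low values in both cell lines.

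Several stress signals, among them amino acid shortage and misfolded protein in the endoplasmic reticulum, are known to converge on phosphorylation of the translation factor eIF2 at its alpha subunit. This lowers general protein synthesis but favours translation of the ATF4 mRNA, so much of the control of ATF4 lies in its translation and was not measured by RNA sequencing. The ATF4 protein binds DNA with partners of the bZIP class and is known to switch on genes for amino acid synthesis and import, tRNA charging, redox balance and, under lasting stress, cell death.

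CWR22RV1 prostate cancer cells carried a lentiviral control shRNA (shControl) or a lentiviral shRNA against GALNT7 (GALNT7 KD). DU145 prostate cancer cells carried a lentiviral control open reading frame (OE control) or a lentiviral GALNT7 open reading frame (GALNT7 OE). All 4 groups were therefore stable lines made by lentiviral transduction, with 3 biological replicates in each group and 12 libraries in all. The promoter that drove the GALNT7 open reading frame and the number of separately made lines per group are not given in the sources used here, so the p-values below measure the spread between these cultures.

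Depth recovered from the tables lay between 18364512 and 22264533 reads per library in CWR22RV1 cells and between 21628718 and 24356910 in DU145 cells. The values are normalised counts, that is, reads on a gene divided by a size factor for the library, and the tables of the cell lines were scaled separately. Every level is therefore compared within a cell line. KLK3, the gene of prostate-specific antigen, had 339 to 856 normalised counts in CWR22RV1 libraries and was listed at 0 in the DU145 libraries, and the leukocyte marker CD3E was listed at 0 in all 12. In bulk RNA, fewer cells of a type and less RNA per cell cannot be told apart.

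GALNT7 itself was measured first. Its normalised count was 862, 1042 and 1093 in shControl and 481, 501 and 400 in GALNT7 KD, a log2 fold change of -1.11 (SE 0.129, limma adjusted p = 0.0051). DU145 cells had 1051, 928 and 913 normalised counts of GALNT7 in the OE control and 1988, 2221 and 2334 in GALNT7 OE, a log2 fold change of 1.18 (SE 0.0863, limma adjusted p = 8.0e-05). The groups did not overlap in either cell line, and the direction was that of the labels.

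Sequences before the start sites of the members are shown because ATF4 and its relatives read known DNA letters there. Of the members, 3 had a match to TGATGNAA, the letters of the composite C/EBP and ATF element, in the 250 bases before a RefSeq start, and another had the cAMP response element TGACGTCA. Each line below gives 30 bases on the strand of the gene, 5′ to 3′, with the match in capitals.
ASNS: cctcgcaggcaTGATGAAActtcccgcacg
CHAC1: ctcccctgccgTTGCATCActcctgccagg
ATF3: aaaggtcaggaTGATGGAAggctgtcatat
PPP1R15A: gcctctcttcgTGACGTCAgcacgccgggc
The ASNS stretch lies at chr7:97872458-97872487 on the minus strand of GRCh38.p14, and its match runs from 68 to 61 bases before the start. The CHAC1 stretch, at chr15:40953251-40953280 on the plus strand, holds TGATGNAA on the opposite strand, 209 to 202 bases before the start. Both of these stretches fall inside an untranslated exon of longer GENCODE 29 transcripts of the same gene. The ATF3 stretch, at chr1:212565205-212565234 on the plus strand, has its match 191 to 184 bases before the start, and the PPP1R15A stretch, at chr19:48872352-48872381 on the plus strand, 58 to 51 bases before it. Both lie outside the GENCODE 29 span of the gene.

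Both strands were searched, and since the motifs differ in their letters on either strand no 8 bases can match both. TGATGNAA was found in 3.14% of 35116 RefSeq promoter stretches and in 3.89% of 27305 genes, and TGACGTCA in 1.65% of the stretches. All 10 members had a RefSeq entry. A match is a description of letters, and absence of a match in this window does not speak about binding by any factor.

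In DU145 cells with GALNT7 OE, 8 of the 10 members rose, CEBPB fell and SESN2 did not pass the test. The largest change was in ASNS, asparagine synthetase, at 4.72-fold, followed by CHAC1 at 2.09-fold and TRIB3 at 1.69-fold. ATF4 itself rose 1.38-fold. The members called made up 90% of the list, beside 43.5% of all 18705 genes tested in this comparison, and the members called higher were 8 of 10 beside 22.9%, with 1 of 10 lower beside 20.5%. Their median log2 fold change was 0.37, beside -0.011 over all genes tested. Called means a Benjamini-Hochberg adjusted p under 0.05 from limma on log2(normalised count + 1), over all genes tested in the cell line.

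In CWR22RV1 cells with GALNT7 KD, 8 of the 10 members did not pass the test. ATF4 fell to 0.868 of its shControl level and DDIT4 rose 1.39-fold. The 2 called members were 20% of the list, beside 9.06% of all 17906 genes tested, of which 5.28% were higher and 3.79% lower. The median log2 fold change of the members was -0.15, beside -0.0063 over all genes tested, and was -0.091 without GALNT7 KD replicate 2. Both calls were lost when shControl replicate 1, 2 or 3 or GALNT7 KD replicate 1 was left out, which leaves 0 members past the limma threshold. Calls among all genes also fell in these fits, from 1623 of 17906 with every library. They were 555 of 17859, 848 of 17866 and 686 of 17865 without shControl replicate 1, 2 or 3, and 539 of 17910 without GALNT7 KD replicate 1.

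**Figure D1:**
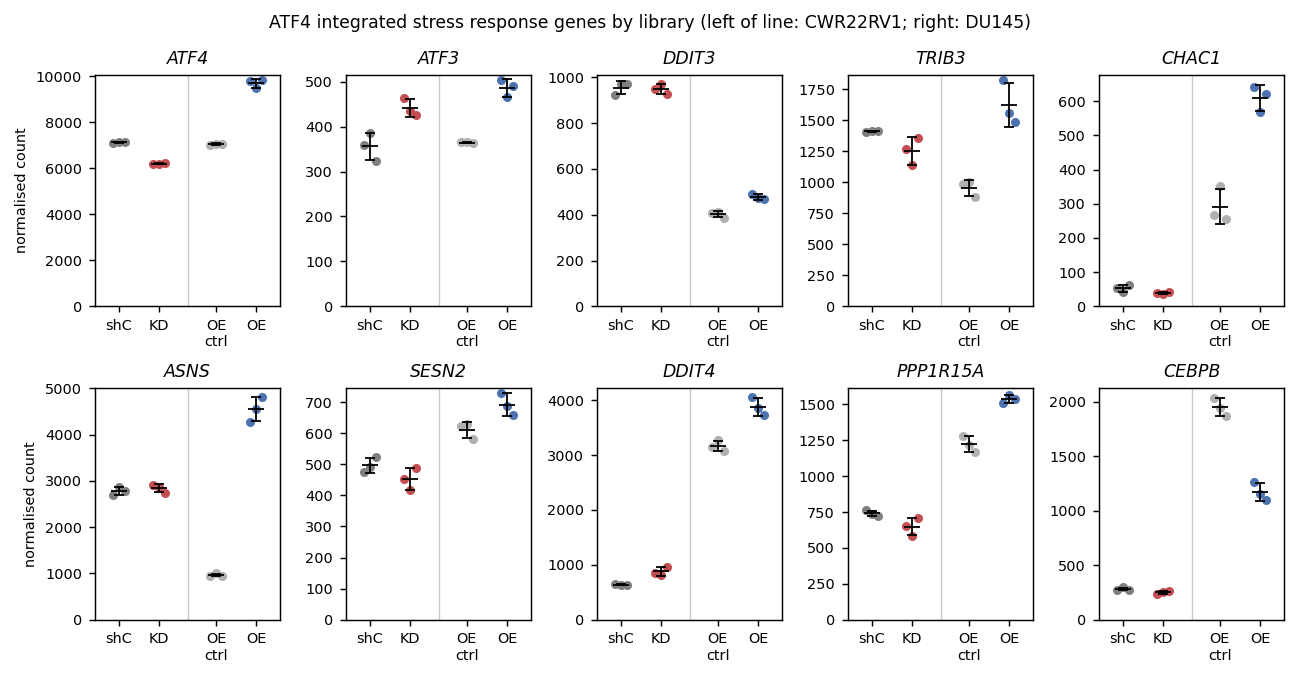
Normalised count of each of the 10 genes (vertical axes, starting at 0) in the 12 libraries, with CWR22RV1 cells left and DU145 cells right of the grey line (shC, shControl). Points are libraries, and bars show the mean and SD of 3. In DU145 the ASNS libraries move from 943 to 998 in the OE control to 4277 to 4808 in GALNT7 OE, while the CEBPB libraries are all lower in GALNT7 OE.

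ATF4 (ENSG00000128272, chromosome 22, 39519695 to 39522685, plus strand) is the activator after which the response is named. Its normalised count in the OE control was 6988, 7069 and 7043, and in GALNT7 OE 9762, 9474 and 9830. All GALNT7 OE libraries were above all control libraries, by far more than the spread within either group. The log2 fold change was 0.46 (SE 0.0329, limma adjusted p = 7.1e-05). In shControl the counts were 7096, 7151 and 7133, and in GALNT7 KD 6188, 6161 and 6203. The KD libraries were all lower, and replicates within a group differed by under 60 normalised counts. This gave a log2 fold change of -0.20 (SE 0.0338, limma adjusted p = 0.016). With 1 library left out the change stayed between -0.21 and -0.20, but the adjusted p rose to as much as 0.071. With eBayes run without a trend it was 0.12. Processed copies of ATF4 elsewhere in the genome had at most 10.6 normalised counts in any library, so few reads were assigned to them.

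ATF3, DDIT3 and CEBPB encode bZIP factors that act with or after ATF4. ATF3 (ENSG00000162772, chromosome 1, 212565334 to 212620777) is a stress-induced factor that often represses its targets. It had 365, 365 and 364 normalised counts in the OE control and 504, 465 and 491 in GALNT7 OE. The groups were well apart, with a log2 fold change of 0.42 (SE 0.0755, limma adjusted p = 0.0044). In CWR22RV1 cells ATF3 had 359, 385 and 324 in shControl and 464, 434 and 425 in GALNT7 KD. The KD libraries were again the higher ones, but the log2 fold change of 0.31 (95% interval 0.08 to 0.54) did not pass the threshold (limma adjusted p = 0.10).

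DDIT3 (ENSG00000175197, chromosome 12, 57516588 to 57521737, minus strand) encodes CHOP, a factor linked to cell death under lasting endoplasmic reticulum stress. Its normalised count was 408, 412 and 387 in the OE control and 491, 475 and 468 in GALNT7 OE. The groups did not overlap, and the log2 fold change was 0.25 (SE 0.0747, limma adjusted p = 0.033). This call was lost without any 1 of the 6 libraries, where the log2 fold change lay between 0.22 and 0.27 and the adjusted p reached 0.10, and after rescaling to the 75th percentile, where the change was 0.15 (limma adjusted p = 0.15). In CWR22RV1 cells the counts were 922, 971 and 970 in shControl and 947, 971 and 928 in GALNT7 KD. The groups overlapped (log2 fold change -0.01, 95% interval -0.16 to 0.14, limma adjusted p = 0.95). The 922 genes tested on chromosome 12, where DDIT3 lies, had a median log2 fold change of -0.28 in GALNT7 KD. DDIT3 overlaps MARS1, the gene of a tRNA synthetase on the opposite strand, which rose by 0.89 in GALNT7 OE (limma adjusted p = 4.5e-05). It also overlaps MBD6 on the opposite strand, which had at most 969 normalised counts in a CWR22RV1 library and 1689 in a DU145 library. The kit kept the strand, but whether counting used it is not given in the sources used here. Reads from MARS1 or MBD6 in the DDIT3 count were not tested.

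CEBPB (ENSG00000172216, chromosome 20, 50190734 to 50192689) is a C/EBP factor that can pair with ATF4 and also serves inflammatory signalling. It was the member that went against the rest in DU145 cells. Its normalised count was 2036, 1945 and 1867 in the OE control and 1260, 1150 and 1096 in GALNT7 OE. Every GALNT7 OE library was lower, with a log2 fold change of -0.74 (SE 0.0711, limma adjusted p = 2.6e-04). In CWR22RV1 cells it had 273, 295 and 276 in shControl and 238, 250 and 262 in GALNT7 KD. The KD libraries were also lower here, but the log2 fold change of -0.17 (95% interval -0.40 to 0.06) did not pass (limma adjusted p = 0.31).

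PPP1R15A and TRIB3 are known for restraining the response. PPP1R15A (ENSG00000087074, chromosome 19, 48872392 to 48876057) encodes GADD34, which brings a phosphatase to eIF2. It had 1282, 1214 and 1172 normalised counts in the OE control and 1510, 1565 and 1541 in GALNT7 OE. The groups did not overlap, and PPP1R15A rose by 0.33 on the log2 scale (SE 0.058, limma adjusted p = 0.0037). In CWR22RV1 cells it had 763, 736 and 724 in shControl and 652, 585 and 705 in GALNT7 KD. The KD libraries lay lower but spread more widely, and the log2 fold change of -0.20 (95% interval -0.41 to 0.01) did not pass (limma adjusted p = 0.22).

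TRIB3 (ENSG00000101255, chromosome 20, 362835 to 397559) encodes a pseudokinase that binds ATF4 and CHOP. It had 988, 1000 and 884 normalised counts in the OE control and 1823, 1558 and 1486 in GALNT7 OE. The 2 groups were far apart even though the GALNT7 OE libraries varied, and TRIB3 rose by 0.76 on the log2 scale (SE 0.0951, limma adjusted p = 8.4e-04). In CWR22RV1 cells it had 1408, 1412 and 1416 in shControl and 1272, 1137 and 1360 in GALNT7 KD. The shControl libraries were nearly identical and all above the KD libraries, which differed among themselves (log2 fold change -0.17, 95% interval -0.36 to 0.01, limma adjusted p = 0.22).

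ASNS and CHAC1 encode enzymes. ASNS (ENSG00000070669, chromosome 7, 97852118 to 97872542, minus strand) makes asparagine from aspartate and glutamine. Its normalised count was 950, 998 and 943 in the OE control and 4277, 4561 and 4808 in GALNT7 OE. No other member had groups so far apart on the log2 scale, with a change of 2.24 (SE 0.0606, 95% interval 2.09 to 2.38, limma adjusted p = 2.6e-06). In CWR22RV1 cells the counts were 2702, 2875 and 2774 in shControl and 2917, 2867 and 2744 in GALNT7 KD. These groups overlapped, and the difference of 0.03 had a 95% interval from -0.09 to 0.15 (limma adjusted p = 0.76).

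CHAC1 (ENSG00000128965, chromosome 15, 40952962 to 40956519) breaks down glutathione. It had 267, 352 and 257 normalised counts in the OE control and 641, 568 and 620 in GALNT7 OE. The lowest GALNT7 OE library was well above the highest control library, and CHAC1 rose by 1.07 on the log2 scale (SE 0.135, limma adjusted p = 8.6e-04). In CWR22RV1 cells it was the least abundant member, with 54.1, 41.6 and 61.3 normalised counts in shControl and 37.7, 37.3 and 41.4 in GALNT7 KD. The KD libraries lay just below the shControl libraries. At 35 to 67 reads per library the log2 fold change of -0.41 had a wide interval, from -0.90 to 0.09 (limma adjusted p = 0.27).

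SESN2 and DDIT4 encode stress-induced proteins known to restrain the growth kinase mTORC1. DDIT4 (ENSG00000168209, chromosome 10, 72273920 to 72276036), also called REDD1, rose in both comparisons. It had 3149, 3267 and 3078 normalised counts in the OE control and 4053, 3862 and 3728 in GALNT7 OE. The groups did not overlap, with a log2 fold change of 0.29 (SE 0.05, limma adjusted p = 0.0033). In CWR22RV1 cells it had 644, 630 and 625 in shControl and 856, 816 and 966 in GALNT7 KD. Every KD library was higher (log2 fold change 0.47, SE 0.0845, limma adjusted p = 0.021). With 1 library left out the change lay between 0.40 and 0.52, and the adjusted p reached 0.074.

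SESN2 (ENSG00000130766, chromosome 1, 28259527 to 28282491) senses leucine. It had 623, 629 and 582 normalised counts in the OE control and 731, 689 and 658 in GALNT7 OE. The GALNT7 OE libraries were all above the control libraries, but the log2 fold change of 0.18 (SE 0.075) did not pass (limma adjusted p = 0.095). In CWR22RV1 cells it had 476, 492 and 524 in shControl and 451, 418 and 489 in GALNT7 KD. These groups overlapped (log2 fold change -0.14, 95% interval -0.36 to 0.09, limma adjusted p = 0.41).

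**Figure D2:**
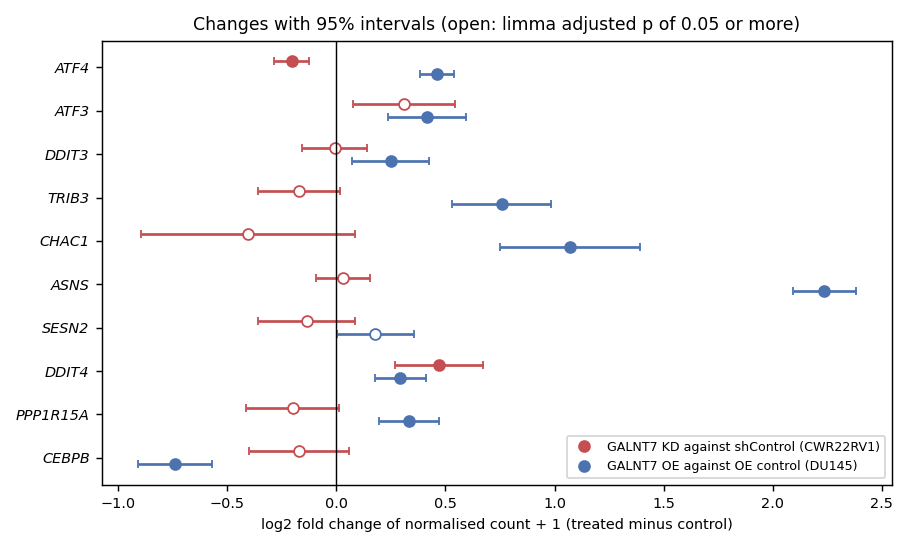
Log2 fold change of each member (horizontal axis, treated minus control, on log2(normalised count + 1)) with its 95% interval from limma, for GALNT7 KD in CWR22RV1 cells and GALNT7 OE in DU145 cells. Filled points passed an adjusted p of 0.05. The GALNT7 OE points lie right of 0 except for CEBPB at -0.74, with ASNS farthest at 2.24, and the GALNT7 KD points lie between -0.41 and 0.47.

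The groups of the 10 members did not overlap for 9 higher and 1 lower member in GALNT7 OE, beside 28.2% and 27.1% of all genes tested (55.3% together). In GALNT7 KD they did not overlap for 2 higher and 5 lower members, beside 16.9% and 15.6% of all genes (32.5% together). The comparisons share no library, but the cell line and the direction of the GALNT7 change differ together, so no difference between them was tested. ATF4 was lower where GALNT7 was lowered and higher where it was raised, and DDIT4 was higher in both.

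Levels of different genes were set side by side after division by the length of all annotated exons of each gene. The lengths of the mRNAs expressed in these cells were not measured, so the orders per kb below depend on this choice of length. Whether the libraries of neighbours overlap does not take that choice into account. In the OE control ATF4 was highest at 2798 ± 16.4 normalised counts per kb (SD, n = 3), followed by DDIT4 at 1538 ± 46.5, CEBPB at 997 ± 43.2, PPP1R15A at 395 ± 18, DDIT3 at 308 ± 10.3, TRIB3 at 279 ± 18.6, ASNS at 216 ± 6.75, SESN2 at 177 ± 7.36, CHAC1 at 142 ± 25.3 and ATF3 at 90.2 ± 0.172. Of neighbours in this order, the libraries of SESN2 and CHAC1 overlapped and no others did. In GALNT7 OE the ASNS level per kb was 1021 ± 59.7, which placed it below ATF4 at 3854 ± 75.3 and DDIT4 at 1886 ± 79.4 and above CEBPB at 597 ± 42.7. PPP1R15A at 498 ± 8.91 and TRIB3 at 472 ± 51.7 per kb then overlapped, and CHAC1 at 296 ± 18.3 stood above SESN2 at 201 ± 10.6.

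The order per kb was another in CWR22RV1 cells. In shControl ATF4 was again highest at 2835 ± 11.1 normalised counts per kb, followed by DDIT3 at 730 ± 21.2, ASNS at 625 ± 19.5, TRIB3 at 411 ± 1.29, DDIT4 at 308 ± 4.70, PPP1R15A at 240 ± 6.33, SESN2 and CEBPB both at 144, ATF3 at 88.1 ± 7.52 and CHAC1 at 25.4 ± 4.87. SESN2 and CEBPB were the neighbours whose libraries overlapped. In GALNT7 KD the level per kb of DDIT4 was 427 ± 37.8 and that of TRIB3 366 ± 32.7, so these members changed places, with the lowest DDIT4 library just above the highest TRIB3 library.

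**Figure D3:**
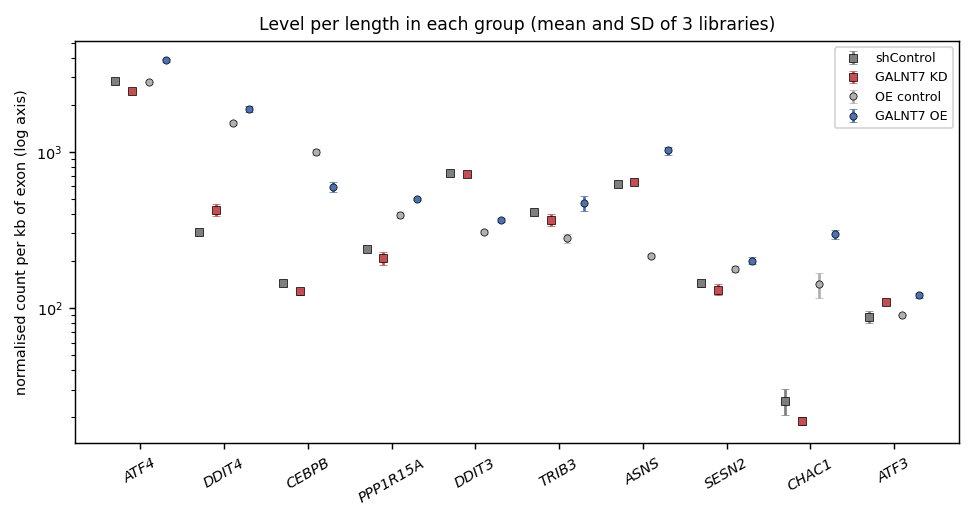
Level of each member in normalised counts per kb of all annotated exons (vertical log axis) in the 4 groups, as mean and SD of 3 libraries. Squares are CWR22RV1 and circles are DU145 groups, which were scaled separately. ATF4 is highest within each group, and within DU145 cells ASNS moves from 216 in the OE control to 1021 in GALNT7 OE.

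The other genes of the response were described by lists of known function. These lists too were chosen with earlier results of these data known, so their shares and medians beside all genes are not independent tests. Genes for amino acid supply known as ATF4 targets moved in the direction of ASNS in DU145 cells. Of 20 such genes 17 rose, SLC38A2 fell and 2 did not pass, with a median log2 fold change of 0.70 (limma, adjusted p under 0.05). This is 90% called, beside 43.5% of all genes tested. PSAT1, an enzyme of serine synthesis, had 4794, 4747 and 4714 normalised counts in the OE control and 17073, 17548 and 17374 in GALNT7 OE, a log2 fold change of 1.87 (limma adjusted p = 5.0e-07). SLC7A5, the light chain of a leucine transporter, changed by 1.87 (limma adjusted p = 3.2e-06) and MTHFD2, of mitochondrial folate metabolism, by 1.48 (limma adjusted p = 3.8e-06). SLC38A2, a glutamine carrier, fell by 0.20 on the log2 scale (limma adjusted p = 0.0014).

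Cytosolic aminoacyl-tRNA synthetases, which charge tRNAs, were higher in GALNT7 OE with few exceptions. Of 12, 11 rose and WARS1, named after its value was seen, did not pass (log2 fold change 0.08, limma adjusted p = 0.52). The share of the 12 called was 91.7%, beside 43.5% of all genes tested, and their median log2 fold change was 0.97. LARS1 had 2600, 2419 and 2564 normalised counts in the OE control and 5822, 6138 and 5874 in GALNT7 OE (log2 fold change 1.23, limma adjusted p = 6.4e-06). YARS1 changed by 1.10 and AARS1 by 1.03. TGATGNAA was found before a RefSeq start of 3 of the 10 of these genes with an entry (AARS1, GARS1 and IARS1), 2 of 14 amino acid supply genes, 2 of 16 bZIP relatives, 1 of 21 genes of eIF2 phosphorylation, 1 of 15 other stress targets and 1 of 15 genes of the ATF6 and XBP1 arm, beside 3.89% of all genes.

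In GALNT7 KD the share called was 5% of the amino acid supply genes and 8.33% of the synthetases, near the 9.06% of all genes tested. Of the 20 amino acid supply genes SLC7A5 fell, by 0.65 on the log2 scale (limma adjusted p = 0.0051), from 7456, 7102 and 7599 normalised counts in shControl to 4806, 4246 and 5143, and 19 did not pass. The median was -0.049, and -0.023 without shControl replicate 3 or -0.026 without GALNT7 KD replicate 2. Of the 12 synthetases EPRS1 rose by 0.28 (limma adjusted p = 0.043) and 11 did not pass, with a median of 0.0076 that turned to -0.014 after rescaling to the 75th percentile and lay between -0.010 and 0.054 with 1 library left out. The EPRS1 call was lost without shControl replicate 1, 2 or 3 or GALNT7 KD replicate 1 or 2, and 2 amino acid supply genes were called without GALNT7 KD replicate 3. With DESeq2 on the recovered reads the amino acid supply genes called were 6, of which 5 were lower. Of all genes tested, DESeq2 called 2642 of 17906, and limma without GALNT7 KD replicate 3 called 1336 of 17952.

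Of 24 genes that set or read the phosphorylation of eIF2, 12 rose and 1 fell in GALNT7 OE. This is 54.2% called, beside 43.5% of all genes tested, and the median log2 fold change of the 24 was 0.22. After rescaling to the 75th percentile 9 were higher and 2 lower with a median of 0.12, and after quantile normalisation 9 were higher and 1 lower with a median of 0.13. EIF2S1, the subunit that is phosphorylated, changed by 0.86, EIF2B3, of its exchange factor, by 0.89, and OMA1, a mitochondrial protease that relays stress to the kinase HRI, by 0.87. DNAJC3, an inhibitor of the kinases PKR and PERK, fell by 0.34 (limma adjusted p = 0.0065). The 4 kinases that phosphorylate eIF2 were singled out after their values were seen. EIF2AK2 (PKR) changed by 0.45 (limma adjusted p = 0.0035) and EIF2AK4 (GCN2), the sensor of uncharged tRNA, by 0.29 (limma adjusted p = 0.038). EIF2AK3 (PERK) had -0.30 (limma adjusted p = 0.12) and EIF2AK1 (HRI) a limma adjusted p of 0.98.

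In GALNT7 KD 2 of these 24 genes rose, 1 fell and 21 did not pass, which is 12.5% called beside 9.06% of all genes tested. The median was 0.0013, and -0.021 after rescaling to the 75th percentile, with -0.014 to 0.024 when 1 library was left out. DNAJC3 rose by 0.52 (limma adjusted p = 0.0084) and PPP1R15B, which like PPP1R15A brings a phosphatase to eIF2, by 0.28 (limma adjusted p = 0.023). PPP1CC, a catalytic subunit of that phosphatase, fell by 0.25 (limma adjusted p = 0.022) and lies on chromosome 12, whose median was -0.28. Without shControl replicate 1 or 3 or GALNT7 KD replicate 1 the calls were 1 of 24. In these fits 555 of 17859, 686 of 17865 and 539 of 17910 genes tested were called. The PPP1R15B call was also lost without GALNT7 KD replicate 2, and the PPP1CC call without shControl replicate 2.

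Among 20 bZIP relatives of ATF4 the calls in GALNT7 OE went mostly the way of CEBPB. Of these, 9 fell and 4 rose, which is 65% called beside 43.5% of all genes tested. The median log2 fold change was -0.15, or -0.25 after rescaling to the 75th percentile, which moves all genes lower. CEBPD fell by 1.45, from 1977, 1909 and 1797 normalised counts in the OE control to 829, 640 and 621 (limma adjusted p = 1.2e-04). JUN fell by 1.32 and JUNB by 1.34. The 4 that rose were CEBPG, a partner of ATF4 without an activation domain, at 0.62, FOSL1 at 0.87, ATF7 at 0.34 and ATF1 at 0.21. In GALNT7 KD ATF1 fell by 0.52 (limma adjusted p = 0.012) and ATF5, another stress-regulated factor, by 0.46 (limma adjusted p = 0.029). The other 18 did not pass, so 10% were called, near the 9.06% of all genes tested. ATF1 lies on chromosome 12. The ATF5 call was lost without any shControl replicate or GALNT7 KD replicate 1 or 2, and the ATF1 call without shControl replicate 3. The median of the list was -0.089, and -0.15 without GALNT7 KD replicate 3.

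Other reported targets of ATF4, a mixed list of survival, death and secreted factors, fell more often than they rose. Of 19 tested of 20, 11 fell and 4 rose in GALNT7 OE, with a median of -0.32. This is 78.9% called, beside 43.5% of all genes tested. VEGFA, an angiogenic factor, had 13828, 13761 and 14522 normalised counts in the OE control and 7475, 6794 and 7531 in GALNT7 OE, a log2 fold change of -0.95 (limma adjusted p = 2.0e-05). KLHL24 fell by 0.77 and NUPR1, a stress-induced chromatin protein, by 0.61. XPOT, the exporter of tRNA from the nucleus, rose by 1.11, STC2 by 0.70 and GADD45B by 0.38. The GADD45B call was lost after rescaling to the 75th percentile, after quantile normalisation, and without OE control replicate 1, 2 or 3 or GALNT7 OE replicate 2, where its log2 fold change stayed between 0.28 and 0.49.

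In GALNT7 KD 7 of these 19 genes rose and 12 did not pass, with a median of 0.33. This is 36.8% called, beside 9.06% of all genes tested. HMOX1, haem oxygenase, had 160, 155 and 159 normalised counts in shControl and 526, 507 and 581 in GALNT7 KD (log2 fold change 1.76, limma adjusted p = 4.4e-04). GDF15, a secreted stress hormone, had 1308, 981 and 754 in shControl and 2286, 2058 and 3655 in GALNT7 KD (log2 fold change 1.38, limma adjusted p = 0.026). In GALNT7 OE GDF15 fell, from 28.6, 68.5 and 29.2 to 6.01, 6.47 and 4.2 normalised counts (log2 fold change -2.61, limma adjusted p = 0.0024). GDF15 would not be named from DU145 cells alone, as its mean there was under 50. Its OE control libraries spread widely, and its GALNT7 OE libraries lay near the filter of 5. KDM7A changed by 0.56 in GALNT7 KD (limma adjusted p = 0.043). KLHL24, named above for its fall in GALNT7 OE, rose by 0.55 in GALNT7 KD (limma adjusted p = 0.0034). VEGFA, NUPR1, XPOT, STC2 and GADD45B did not pass in GALNT7 KD. Without shControl replicate 1 the list had 4 calls, and without shControl replicate 2 or 3 or GALNT7 KD replicate 1 it had 3. Of all genes tested, 555 of 17859 were called in the first of these fits. In the others 848 of 17866, 686 of 17865 and 539 of 17910 were called. The median was 0.15 without shControl replicate 1 and 0.20 without GALNT7 KD replicate 1. The GDF15 call was lost without shControl replicate 2 or 3 or GALNT7 KD replicate 1, and the KDM7A call without any 1 library.

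The ATF6 and XBP1 arm of the unfolded protein response, which makes chaperones and does not run through eIF2, is set beside the members because the same endoplasmic reticulum stress can switch on both. In GALNT7 KD 7 of its 15 genes rose and 8 did not pass, which is 46.7% called beside 9.06% of all genes tested. All 15 had a log2 fold change above 0, with a median of 0.42. HSPA5, the chaperone BiP, had 23538, 24027 and 23441 normalised counts in shControl and 39440, 39025 and 38005 in GALNT7 KD. These groups were far apart, with a log2 fold change of 0.71 (limma adjusted p = 6.9e-05). MANF changed by 0.70 (limma adjusted p = 7.0e-04) and HERPUD1 by 0.67 (limma adjusted p = 0.0015). Without GALNT7 KD replicate 1 the list had 4 calls, beside 539 of 17910 genes tested. In GALNT7 OE 5 of the 15 rose and 2 fell, which is 46.7% called, near the 43.5% of all genes tested. The median of 0.041 turned to -0.058 after rescaling to the 75th percentile and to -0.055 after quantile normalisation, and was 0.084 without GALNT7 OE replicate 1. MANF changed by 0.81, HYOU1 by 0.58 and DNAJB11 by 0.42, ERN1 fell by 0.69 and XBP1 by 0.18, and HSPA5 did not pass (0.06, limma adjusted p = 0.092). The XBP1 call was lost without OE control replicate 1, 2 or 3 (limma adjusted p up to 0.061).

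**Figure D4:**
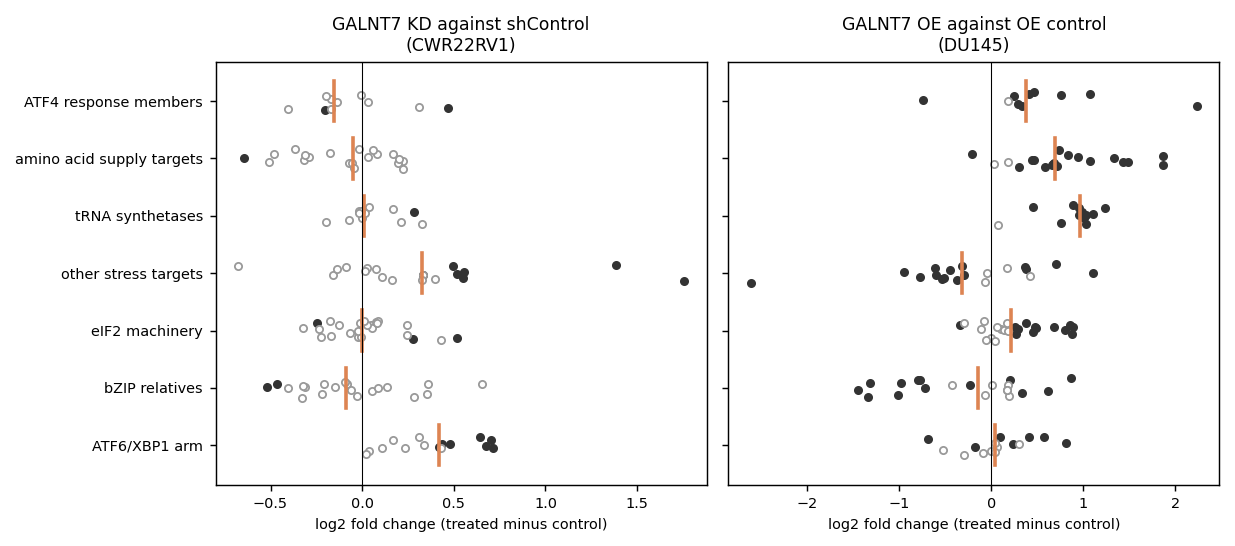
Log2 fold change (horizontal axes, treated minus control) of every tested gene of the 7 lists, in GALNT7 KD (left) and GALNT7 OE (right). Filled points passed an adjusted p of 0.05 in limma, and orange bars are list medians. In GALNT7 OE the rightmost medians are those of the members (0.37), the amino acid supply targets (0.70) and the tRNA synthetases (0.97). The eIF2 machinery (0.22) and the ATF6 and XBP1 arm (0.041) also lie right of 0 there. In GALNT7 KD the rightmost are the other stress targets (0.33) and the ATF6 and XBP1 arm (0.42). The tRNA synthetases (0.0076) and the eIF2 machinery (0.0013) lie just right of 0.

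Other scalings kept the order of these lists in DU145 cells. Rescaling each library to its 75th percentile moved the median of all genes to -0.11 and the share of calls that were higher from 52.8% to 41.6%. Under it 7 members were higher and 1 lower, 16 amino acid supply genes were higher and 1 lower, and 11 synthetases were higher. Quantile normalisation gave 8 members higher and 1 lower.

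Markers of other cell types were measured beside these lists. Of 11 such genes 5 passed the filter in each cell line. In DU145 cells 1 rose and 2 fell, which is 60% of those tested, beside 43.5% of all genes. The summed normalised count of the 11 genes was 2957 to 3272 in the OE control and 1155 to 1318 in GALNT7 OE. Most of it came from the lysosomal gene CD68, at 2675 ± 89.2 and 1035 ± 73.3 (SD, n = 3). In CWR22RV1 cells the sum was 290 to 309 in shControl and 288 to 333 in GALNT7 KD, with 0 called by limma and 1 with an unadjusted p under 0.05. CD3E was listed at 0 in every library and the leukocyte marker PTPRC had at most 2.10 normalised counts. Their part in the members' values was not tested.

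Genes whose pattern over the 12 libraries was most like that of ATF4 were NFYA, a subunit of a CCAAT-box factor, PRPF38A, a splicing factor, and EIF5, which acts on eIF2 during start codon choice. They had the smallest root mean square difference from ATF4, 0.0287, 0.0347 and 0.0413 on the log2 scale relative to each control group, among 11816 genes ranked. They were picked for this likeness in the same 12 libraries, so changes near those of ATF4 follow from the choice. The values and p-values below describe the picked genes and are not independent tests. EIF5 had a log2 fold change of -0.19 in GALNT7 KD (limma adjusted p = 0.048) and 0.47 in GALNT7 OE (limma adjusted p = 2.0e-04). NFYA had -0.19 (limma adjusted p = 0.065) and 0.46 (limma adjusted p = 7.3e-04), and PRPF38A -0.17 (limma adjusted p = 0.088) and 0.42 (limma adjusted p = 0.0018).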

How the data were processed

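RNA from 12 cultures was made into libraries from polyadenylated RNA with a stranded kit (TruSeq Stranded mRNA). The authors deposited a signal, normalised counts per Ensembl gene, in 1 table per cell line. In every library all values (100%, tolerance 0.01 reads) were whole multiples of the smallest value above 0, so reads divided by a size factor. The submitters' processing notes name FastQC, Salmon, DESeq2, R 3.5.3 and the build hg38, with no role or order, and the counting settings are not given in the sources used here. Symbols, GRCh38 positions and exon lengths were read from GENCODE 29, where 94.4% of the identifiers were found. Promoter sequences came from RefSeq (GRCh38.p14).

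Each cell line was fitted alone in R 4.3.3 with limma 3.58.1 (lmFit, eBayes with trend, two-sided) after a pseudocount of 1 and a log2 transform. Genes entered if their 6 libraries averaged 5 normalised counts or more, p-values were adjusted over all of them by Benjamini-Hochberg, and 0.05 was the threshold. The scale understates changes of low genes. Replicates within a group differed beyond sampling noise (mean chi-square per gene 8.85 to 24.2), so none was merged. Members and lists were chosen with earlier results of these data known. The members were always named, as were, from each other list and comparison, up to 3 called genes a direction with the largest change and a mean of at least 50, and the 3 genes most like ATF4. Alternatives were 2 other pseudocounts, other filters and scalings, the replicate number as a block, eBayes without trend, a threshold of 0.01, each library left out, and, for CWR22RV1 cells, edgeR 4.0.16 and DESeq2 1.42.0 on the recovered reads. The scripts were tested on simulated data. The values of 1 marker gene are not reported here.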

Additional observations from a re-analysis of the deposited data

How the results depend on the processing

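In CWR22RV1 cells the 1623 genes called became 1002 with the replicate block, 996 without the eBayes trend, 392 at an adjusted p of 0.01, 2642 with DESeq2 and 539 to 1336 with 1 library left out. Members called fell from 2 to 0 with the replicate block (limma adjusted p = 0.050 for ATF4 at -0.20 and 0.052 for DDIT4 at 0.47), to 1 without the trend (ATF4 at -0.20, adjusted p = 0.12), to 0 at 0.01, where neither ATF4 (0.016) nor DDIT4 (0.021) passed, and to 0 to 2 with 1 library left out (ATF4 -0.21 to -0.20, DDIT4 0.40 to 0.52). Both calls held with edgeR and DESeq2. Values near 0 changed sign: ASNS was -0.015 under quantile normalisation, and DDIT3 lay between -0.033 and 0.0077 with 1 library left out. In DU145 cells the 8132 genes called became 5303 at 0.01. DDIT3, at 0.25, was no longer called without a filter on low values (adjusted p = 0.060), after 75th percentile rescaling (0.15), with the replicate block (0.075) or at 0.01, and lay between 0.22 and 0.27 with 1 library left out. The other member calls in DU145 cells held under every alternative run. In all, the 2 members called in CWR22RV1 cells lost their call in 13 of 34 values over 17 alternatives, and the 9 called in DU145 cells in 10 of 135 values over 15 alternatives. The causes of these lost calls were not tested. Leaving out a library changes which libraries enter the fit and also leaves fewer of them.

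Replicate numbers are shared by the groups, but same-numbered libraries deviated together with a correlation of -0.011 to 0.075 in CWR22RV1 and 0.016 to 0.043 in DU145 cells, so they were not taken as pairs. In DU145 cells each of the 6 libraries was closest to its own number. The replicate block left 7 members higher and 1 lower there. edgeR and DESeq2 were not run for DU145 cells, where 1 read is worth close to 1 normalised count in 2 libraries. Depth limits CHAC1 in CWR22RV1 cells, at 35 to 67 reads.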
